A study of Mus musculus with 6 samples.

Results

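The genes described here are those of 2 ligand and receptor systems of cell contact and axon guidance: the Eph receptors with their ephrin ligands, and the semaphorins with their plexin and neuropilin receptors. They were chosen by gene name (Epha, Ephb, Efna, Efnb, Sema3 to Sema7, Plxna to Plxnd, Nrp1 and Nrp2), which gave 53 of the 49568 gene names in the data. RNA was sequenced from neurons of the preBötzinger Complex (preBötC), the brainstem site where inspiratory rhythm arises, in postnatal day 2 mice of the genotype Dbx1CreERT2; Rosa26tdTomato, in which tamoxifen given to the pregnant dam lets Cre act in cells that express Dbx1, a transcription factor of ventral progenitors, and leaves their progeny red with tdTomato. Each of the 6 samples pooled 15 neurons drawn 1 by 1 into a pipette from the slice of a different mouse. The 3 Dbx1 samples held fluorescent neurons and the 3 non-Dbx1 samples held somata without fluorescence from mice of the same genotype. A neuron was therefore placed in the non-Dbx1 group by the absence of a label whose recombination is induced, and each pool can mix several neuron types.

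Eph receptors are the largest family of receptor tyrosine kinases, and ephrins are their membrane-bound ligands, the A class held by a lipid anchor and the B class spanning the membrane. Contact between cells that carry them usually repels growing axons, and ephrins can also signal back into the cell that bears them. Semaphorins are secreted (class 3) or membrane-bound (classes 4 to 7) cues that collapse or attract growth cones through plexins, with neuropilins as the ligand-binding partners for most class 3 members. In the hindbrain and spinal cord both systems steer axons near the midline, and in postnatal neurons they also act at synapses.

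Reads assigned to genes numbered 6464675 to 9432958 per sample, as recovered from the steps between the values. Values are RPKM, reads on a gene scaled to its exon length and to the sample's total of reads assigned to genes. The 6 neuronal markers checked, among them Tubb3 and Snap25, had a summed RPKM of 1305 to 2199 per sample. Dbx1 itself was at 0 in every sample, and Evx1, a transcription factor of the Dbx1 lineage, had reads only in Dbx1 replicates 2 and 3. Evx2, also checked for this lineage, had reads in all 6 samples and its groups overlapped. It measured 0.660, 4.40 and 11.2 RPKM among Dbx1 replicates, against 1.83, 0.0219 and 0.357 among non-Dbx1 replicates. Of the 5 astrocyte markers, Aldoc measured 199 to 239 RPKM and the others together 13.9 to 31.0, and microglial markers summed to at most 2.97, with Itgam and Tmem119 at 0 throughout. Genes of other cells stood out in single non-Dbx1 samples. The 7 oligodendrocyte lineage markers summed to 372 RPKM in non-Dbx1 replicate 1 against 4.40 to 24.7 in the others, and the 5 endothelial markers summed to 70.0 in non-Dbx1 replicate 2 against 0.0287 to 3.83, most of it Cldn5. The 4 motor neuron markers summed to 25.2 in non-Dbx1 replicate 3 and to 0.191 to 12.8 elsewhere. Isl1 was at 13.3 in non-Dbx1 replicate 3 and at 0 in the other samples, and Chat was also highest there. Slc5a7 was instead highest in non-Dbx1 replicate 2, at 10.9 RPKM. It measured 7.91 in non-Dbx1 replicate 3 and 8.52 in Dbx1 replicate 3. Mnx1 had reads only in non-Dbx1 replicate 1, at 0.145 RPKM. Haemoglobin and Alas2 transcripts, 5 genes, summed to 14058 RPKM in non-Dbx1 replicate 1, to 1198 and 733 in the other non-Dbx1 samples and to 90.3, 218 and 507 in the Dbx1 samples.

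All 53 guidance genes had reads in at least 1 sample, 50 of them in both groups and 36 in all 6 samples. Between 44 and 47 of them were above 0 in a sample. Their mean RPKM over the 6 samples had a median of 3.37, against 1.09 over the 27067 genes with any read, and 39 genes reached 1 and 7 reached 10. Those 7 were Epha10 (26.3), Efnb3 (18.8), Plxna4 (14.7), Epha5 (13.3), Efna3 (11.6), Nrp2 (10.2) and Plxna1 (10.1). No EphB receptor or semaphorin was in this range by the deposited values. With the merged exon lengths described below, Ephb1, Ephb6, Sema4a and Sema6d would be, at 12.8, 11.3, 14.3 and 11.8 RPKM. Summed over all 53 genes, RPKM was 179, 214 and 280.0 among Dbx1 replicates, against 369, 227 and 211 among non-Dbx1 replicates.

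**Figure D1:**
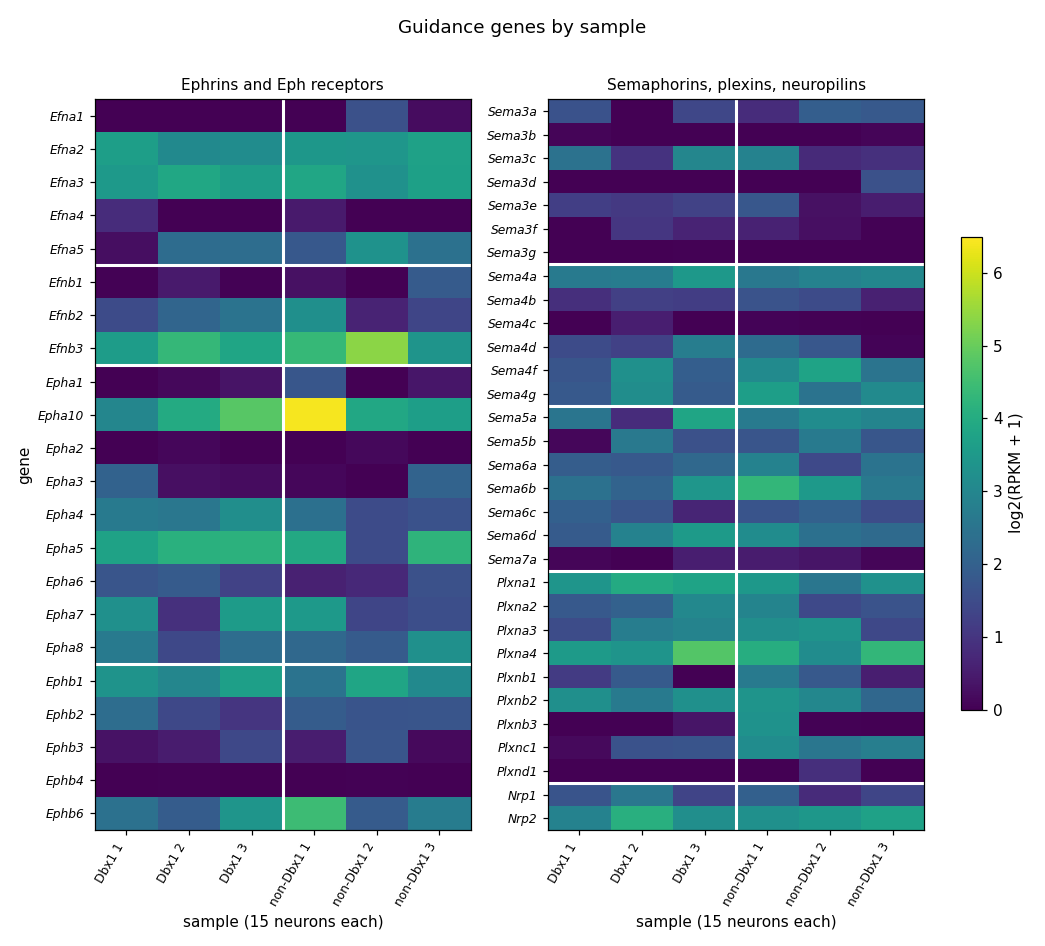
Each cell is the log2(RPKM + 1) of 1 guidance gene (rows) in 1 sample of 15 neurons (columns), with Dbx1 samples left and non-Dbx1 samples right of the white vertical line and white horizontal lines between classes. Rows such as Efna2 and Efna3 are even across samples, while Epha10 is brightest in non-Dbx1 replicate 1 and Sema3d, Plxnb3 and Plxnd1 stand out in 1 sample each.

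Among the ephrin-A ligands, Efna3 and Efna2 had the highest means. RPKM of Efna3 was 10.4, 13.6 and 11.4 among Dbx1 replicates, against 13.5, 8.68 and 11.98 among non-Dbx1 replicates. RPKM of Efna2 was 11.6, 7.54 and 7.96 among Dbx1 replicates, against 9.94, 9.60 and 12.1 among non-Dbx1 replicates. Which of the pair was the higher changed from sample to sample, with Efna3 above Efna2 in 3 of 6. Their group differences, as L2FC (mean log2(RPKM + 1) of the Dbx1 group minus that of the non-Dbx1 group), were 0.059 for Efna3 with a standard error of 0.320, and −0.22 for Efna2 with a standard error of 0.338. Efna5, the ephrin best known from topographic maps, varied far more.

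RPKM of Efna5 was 0.175, 3.88 and 3.996 among Dbx1 replicates, against 2.44, 8.88 and 4.35 among non-Dbx1 replicates, with the lowest value in Dbx1 replicate 1 resting on 6 reads. Efna5 had an L2FC of −0.89 (standard error 0.746, limma FDR = 0.949), which was −0.20 without Dbx1 replicate 1. Efna1 and Efna4 were at 0 in most samples. Efna4 had reads only in Dbx1 replicate 1 and non-Dbx1 replicate 1, and Efna1 only in non-Dbx1 replicates 2 and 3. Their highest values were 0.786 RPKM for Efna4 and 2.08 for Efna1. Summed over the 5 ephrin-A genes, RPKM was 23.0, 24.98 and 23.3 among Dbx1 replicates, against 26.2, 29.2 and 28.6 among non-Dbx1 replicates, so the sums did not overlap, although the groups overlapped for each of the 3 genes tested. This held for 1 of the 9 class sums, beside 10.6% of all single genes tested.

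Of the transmembrane ephrins, Efnb3, a midline repellent for spinal axons, was the main member, above Efnb2 in 6 of 6 samples. RPKM of Efnb3 was 11.02, 19.2 and 13.1 among Dbx1 replicates, against 19.5, 40.5 and 9.33 among non-Dbx1 replicates. The non-Dbx1 samples held both the highest and the lowest value, and the L2FC of −0.45 (standard error 0.497, limma FDR = 0.958) became 0.052 without non-Dbx1 replicate 2. Efnb2, which also marks arterial endothelium, measured 1.81, 3.37 and 4.53 RPKM among Dbx1 replicates, against 8.41, 0.559 and 1.57 among non-Dbx1 replicates. It was lowest in non-Dbx1 replicate 2, the sample with the endothelial transcripts. Efnb1 was at 2.66 RPKM in non-Dbx1 replicate 3, from 102 reads, and at most 0.392 elsewhere.

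Of the 9 EphA receptors, 7 had a mean RPKM of at least 1. Epha10, a family member whose kinase domain lacks catalytic activity, had the highest mean of all 53 genes, and that mean came mostly from a single sample. RPKM of Epha10 was 6.92, 14.7 and 26.9 among Dbx1 replicates, against 84.0, 13.9 and 11.6 among non-Dbx1 replicates, from 435 to 4297 reads. Non-Dbx1 replicate 1 held 53.2% of the summed RPKM, and the L2FC of −0.73 (standard error 0.749, limma FDR = 0.952) turned to 0.15 without it. In the same sample the oligodendrocyte and haemoglobin sums given above were also at their highest, and their part in the value of Epha10 was not tested.

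Epha5, a receptor of ephrin-A ligands in forebrain and hindbrain neurons, was high in 5 of the 6 samples. Its RPKM was 12.4, 16.3 and 16.9 among Dbx1 replicates, against 14.3, 1.81 and 17.8 among non-Dbx1 replicates. The L2FC of 0.79 (standard error 0.672, limma FDR = 0.951) rested on the low value of non-Dbx1 replicate 2 and was −0.076 without it. Of the pair with the highest means, Epha10 lay above Epha5 in 3 of 6 samples and Epha5 lay above the next receptor, Epha7, in 6 of 6.

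Epha4 was the only guidance gene with every Dbx1 sample above every non-Dbx1 sample. It binds ephrins of both classes and, with ephrin-B3, keeps spinal axons from crossing the midline again. RPKM of Epha4 (ENSMUSG00000026235, chromosome 1 from 77367185 to 77515088 of GRCm38) was 5.29, 5.02 and 8.19 among Dbx1 replicates, against 4.32, 1.82 and 2.09 among non-Dbx1 replicates, from 248 to 907 reads. The lowest Dbx1 value and the highest non-Dbx1 value were close. Group means were 6.16 ± 1.76 and 2.74 ± 1.37 (SD, n = 3), and the exact two-sided permutation test gave p = 0.10, below which a design of 3 against 3 cannot go. Epha4 had an L2FC of 0.97 (standard error 0.509, 95% interval −0.19 to 2.13), with a limma FDR of 0.924.

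The other EphA receptors were lower or patchy. Epha6 measured 2.31, 2.66 and 1.43 RPKM among Dbx1 replicates, against 0.506, 0.681 and 2.04 among non-Dbx1 replicates, with an L2FC of 0.65 (standard error 0.534, limma FDR = 0.949) and overlapping groups. Epha7 was at 8.53 to 10.8 RPKM in Dbx1 replicates 1 and 3 and non-Dbx1 replicate 1 and at 0.859 to 1.97 in the other 3 samples. Epha3 was at 3.13 and 3.17 RPKM in Dbx1 replicate 1 and non-Dbx1 replicate 3 and at most 0.211 elsewhere, so that for these receptors the samples of a group differed from each other more than the groups did. Epha8 had a mean of 4.32 RPKM. Epha1 and Epha2 had means of 0.507 and 0.0314.

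Of the EphB receptors, which pair mainly with the transmembrane ephrins, Ephb1 was the most even. Its RPKM was 9.11, 6.92 and 11.8 among Dbx1 replicates, against 4.58, 13.1 and 7.45 among non-Dbx1 replicates, an L2FC of 0.21 that was smaller than its standard error of 0.443. Ephb6, the other family member without kinase activity, measured 4.36, 2.70 and 9.39 RPKM (Dbx1) and 20.9, 2.65 and 5.62 (non-Dbx1). As with Epha10 the highest value was in non-Dbx1 replicate 1, without which the L2FC of −0.45 turned to 0.26. Ephb2, a receptor at excitatory synapses, was lower at a mean of 2.33 RPKM, and Ephb3 had a mean of 0.852. Ephb4, the receptor of venous endothelium, had at most 0.0288 RPKM in a sample.

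**Figure D2:**
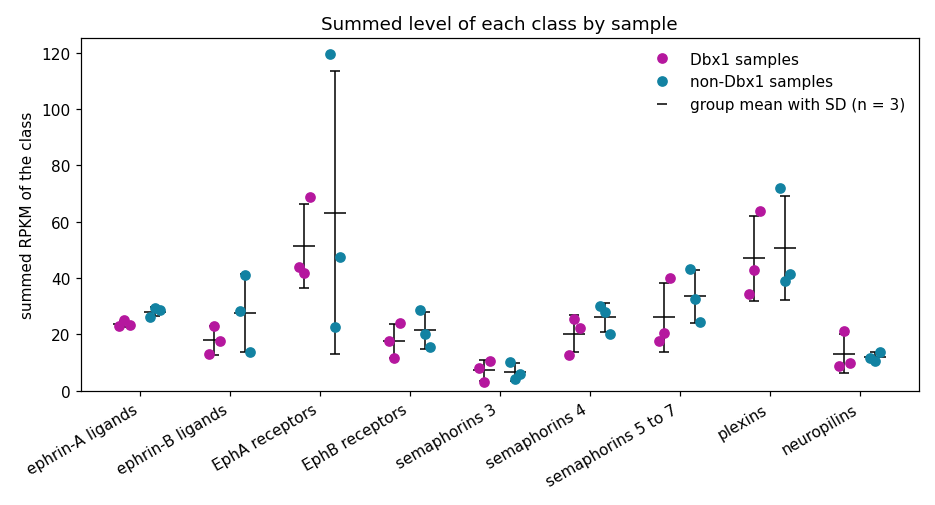
Summed RPKM of the genes of each class (vertical axis, from 0) in each sample, with Dbx1 samples in magenta and non-Dbx1 samples in blue and black bars for the group mean with SD (n = 3). The EphA receptors reach 119 in non-Dbx1 replicate 1 and 22.5 in non-Dbx1 replicate 2, whereas the ephrin-A ligands stay between 23.0 and 29.2 in all samples.

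Class 3 semaphorins, the secreted cues, had the lowest class sum in 5 of 6 samples, at 3.10 to 10.5 RPKM over 7 genes (in Dbx1 replicate 3 the neuropilins, at 9.71, were lower), and only 2 of the 7 had reads in all 6 samples. Sema3c measured 4.47, 0.940 and 6.85 RPKM among Dbx1 replicates, against 6.37, 0.713 and 0.879 among non-Dbx1 replicates (L2FC 0.60, standard error 0.806, limma FDR = 0.960, 0.18 without Dbx1 replicate 3, 1.28 with all but non-Dbx1 replicate 1). Sema3a, the classic collapsing factor that acts through Nrp1, measured 2.14, 0 and 1.60 (Dbx1) and 0.786, 2.82 and 2.54 (non-Dbx1) (L2FC −0.52, standard error 0.632, limma FDR = 0.960, and −0.016 without Dbx1 replicate 2). In Dbx1 replicate 2, where Sema3a was at 0, 3 reads, taken here as the detection floor, would have given at most 0.0256 RPKM. The other Dbx1 samples had 308 and 202 reads. Such floors cover counting error only, since reads of amplified complementary DNA are not independent molecules. Sema3d was at 2.08 RPKM in non-Dbx1 replicate 3, from 275 reads, and had at most 1 read in every other sample. Sema3b and Sema3g were at 0.0664 RPKM or less in every sample.

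Class 4 semaphorins are membrane-bound and act largely through B plexins. Sema4a was even, at 5.37, 5.67 and 9.98 RPKM among Dbx1 replicates, against 5.03, 6.37 and 7.06 among non-Dbx1 replicates, with an L2FC of 0.13 (standard error 0.414). Sema4f measured 2.26, 8.66 and 2.84 (Dbx1) and 7.57, 12.7 and 4.71 (non-Dbx1) (L2FC −0.82, standard error 0.573, limma FDR = 0.936). Sema4g, at 2.497, 8.10 and 2.62 (Dbx1) and 11.4, 4.56 and 7.63 (non-Dbx1), had a similar L2FC of −0.79, and for both genes Dbx1 replicate 2 lay within the range of the non-Dbx1 samples. Sema4d, the ligand of Plxnb1, ran from 0.0465 to 5.71 RPKM. Sema4c was at 0.453 RPKM in Dbx1 replicate 2 and at most 0.0377 elsewhere.

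Of classes 5 to 7, 6 of the 7 genes had a lower mean of log2(RPKM + 1) in the Dbx1 samples, none with limma p under 0.05. RPKM of Sema6b was 4.33, 3.21 and 9.76 among Dbx1 replicates, against 18.7, 10.2 and 5.20 among non-Dbx1 replicates (L2FC −0.83, standard error 0.555, limma FDR = 0.936, and −0.42 without non-Dbx1 replicate 1). Sema5a measured 4.81, 0.774 and 13.1 (Dbx1) and 5.45, 7.99 and 6.67 (non-Dbx1), and the spread within the Dbx1 samples exceeded the difference of the groups (L2FC −0.54, standard error 0.724). The L2FC of Sema5a was 0.25 without Dbx1 replicate 2. Sema6a and Sema6d, ligands of A plexins, had means of 3.56 and 5.92 RPKM. Sema7a, the lipid-anchored ligand of Plxnc1, was at most 0.464 RPKM in any sample, from 12 reads or fewer.

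The neuropilins were unequal, with Nrp2 above Nrp1 in 6 of 6 samples. Nrp2, the binding partner preferred by Sema3f, measured 6.39, 16.2 and 8.19 RPKM among Dbx1 replicates, against 8.65, 9.85 and 12.3 among non-Dbx1 replicates. The group means were 10.2 ± 5.19 and 10.2 ± 1.84 (SD, n = 3). Nrp1, the partner of Sema3a, measured 2.25, 4.97 and 1.53 RPKM (Dbx1) and 2.99, 0.747 and 1.57 (non-Dbx1) (L2FC 0.48, standard error 0.615, limma FDR = 0.960, and 0.13 without Dbx1 replicate 2). Both neuropilins were highest in Dbx1 replicate 2, and there the summed RPKM of class 3 semaphorins was lowest, at 3.10. Sema3f was instead highest in that sample, at 1.03 RPKM from 81 reads, against at most 0.578 elsewhere. A relation between neuropilin and semaphorin levels was not tested.

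Of the 9 plexins, the signalling receptors of the semaphorins, 8 had a mean RPKM of at least 1 and Plxna4 and Plxna1 had the highest means. RPKM of Plxna4 was 10.7, 9.32 and 26.1 among Dbx1 replicates, against 15.5, 7.97 and 18.7 among non-Dbx1 replicates. Plxna1 measured 9.52, 14.7 and 12.8 (Dbx1) and 10.03, 4.85 and 8.85 (non-Dbx1), so that the groups overlapped only through Dbx1 replicate 1 and non-Dbx1 replicate 1. The L2FC of Plxna1 was 0.61 (standard error 0.383, 95% interval −0.26 to 1.49, limma FDR = 0.936; exact permutation test, p = 0.20), and that of Plxna4 was 0.055 (standard error 0.470). Without non-Dbx1 replicate 2 the L2FC of Plxna1 was 0.33. Plxnb2 was the most abundant B plexin, at a mean of 7.02 RPKM. Plxna2, Plxna3 and Plxnb1 had means of 3.89, 5.52 and 2.04.

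Plxnc1, the receptor of Sema7a, was the only guidance gene with every non-Dbx1 sample above every Dbx1 sample. RPKM of Plxnc1 (ENSMUSG00000074785, chromosome 10 from 94790866 to 94944835 of GRCm38) was 0.124, 2.13 and 2.22 among Dbx1 replicates, against 7.94, 4.85 and 5.90 among non-Dbx1 replicates, from 9 to 507 reads. The highest Dbx1 value was below the lowest non-Dbx1 value by more than the whole range of the Dbx1 samples. Group means were 1.49 ± 1.18 and 6.23 ± 1.57 (SD, n = 3), and the exact permutation p was again 0.10. On the log2 scale the L2FC was −1.66 (standard error 0.614, 95% interval −3.07 to −0.26), under an unadjusted limma threshold of 0.05 but with FDR = 0.912 over all genes. It no longer passed that unadjusted threshold without Dbx1 replicate 1 (L2FC −1.16), without non-Dbx1 replicate 1 (−1.50) or without non-Dbx1 replicate 3 (−1.69).

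**Figure D3:**
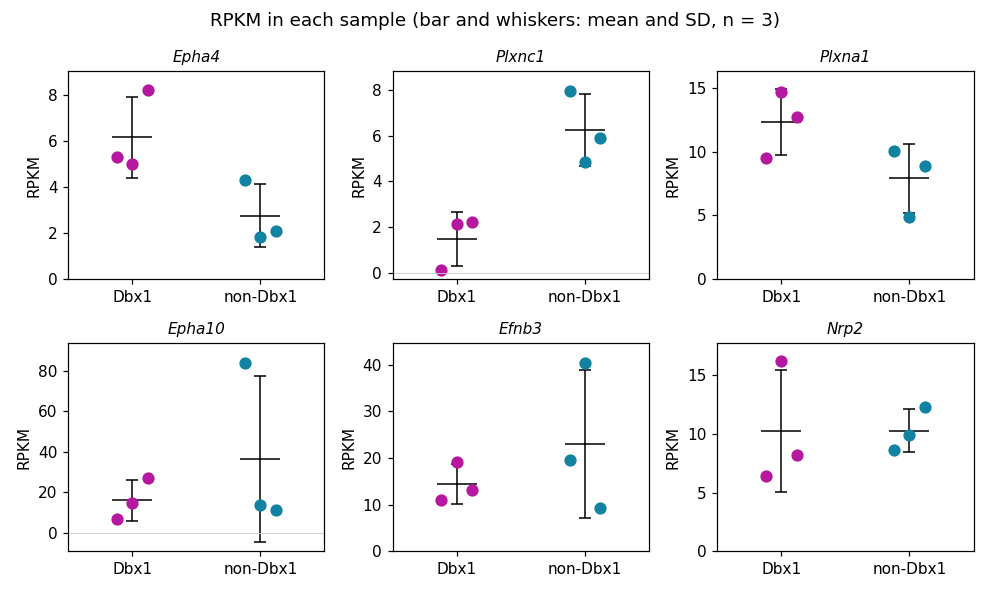
RPKM (vertical axes) of 6 guidance genes in each sample, with Dbx1 samples in magenta, non-Dbx1 samples in blue and black bars for the mean with SD (n = 3). The groups do not overlap for Epha4 and Plxnc1, and overlap for Plxna1 only through replicate 1 of each group. They also overlap for Epha10, Efnb3 and Nrp2, with 84.0 RPKM of Epha10 in non-Dbx1 replicate 1.

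Whether Dbx1 and non-Dbx1 neurons differ in these genes was tested by fitting log2(RPKM + 1) in limma for the 17614 genes above 0 in at least 3 samples, 47 of them guidance genes. Efna1, Efna4, Epha2, Ephb4, Plxnd1 and Sema3g had too few samples with reads to be tested. No guidance gene had an FDR under 0.1, the lowest being 0.912, and over all genes tested 0.00568% did. Of the guidance genes, 0 had an unadjusted p under 0.05 and a higher level in the Dbx1 samples, where the share of all genes was 2.73%. In the other direction there was 1, Plxnc1, where the share of all genes was 2.48%. In limma voom on the recovered reads, with 39 guidance genes tested, again none had an FDR under 0.1, and p was under 0.05 for Epha4 (Dbx1 higher, as for 2.92% of all genes in that test) and Plxnc1 (non-Dbx1 higher, as for 2.35%). Fewer neurons of a type and less RNA per neuron cannot be told apart in such pools.

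Groups that did not overlap were seen for 2 of the 47 guidance genes, Epha4 and Plxnc1, and for 10.6% of all genes tested, by direction 5.35% with the Dbx1 samples higher and 5.24% with the non-Dbx1 samples higher. The L2FC was above 0 for 21 guidance genes and below 0 for 26, with a median of −0.099 against 0.0089 over all genes. For 34 of the 47 it was smaller than its standard error. The 95% interval of a guidance gene extended by a median of 1.27 to each side on the log2 scale, so that differences of about that size could not be told from 0 for most members.

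**Figure D4:**
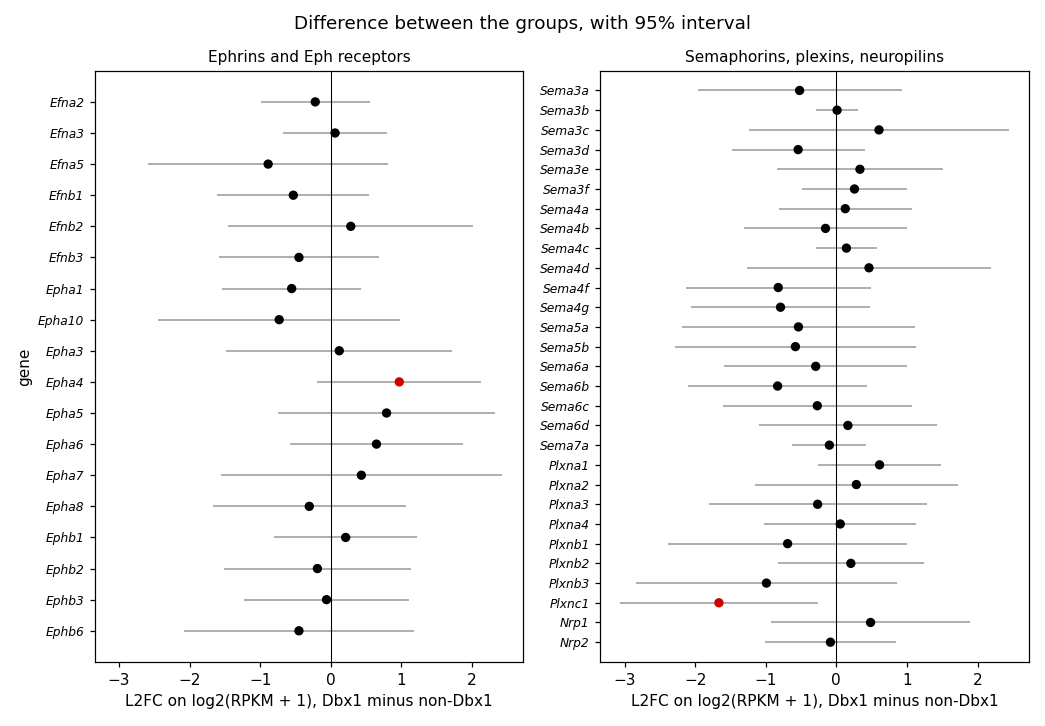
L2FC on log2(RPKM + 1), Dbx1 minus non-Dbx1 (horizontal axis), with its 95% limma interval for the 47 tested guidance genes (rows), red where the groups did not overlap. The interval of Plxnc1, −3.07 to −0.26, lies below 0 before adjustment and those of the other genes cross 0.

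Spread between samples of a group was large for many guidance genes, though no larger than for other genes of like level. Of the 39 with a mean RPKM of at least 1, 12 (30.8%) differed by at least 10 times between samples of the same group, and the share was 37.1% over the 11948 genes with a mean between 1 and 26.3 RPKM. The median within-group SD of log2(RPKM + 1) was 0.690 over these guidance genes and 0.693 over those genes. The 12 were Efna5, Efnb2, Epha3, Epha7, Plxnb1, Plxnb3, Plxnc1, Sema3a, Sema3e, Sema4d, Sema5a and Sema5b, which include ligands and receptors of both systems.

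For 12 of the 53 genes a single sample held more than 50% of the summed RPKM. Plxnb3, a plexin of the oligodendrocyte lineage, was at 8.89 RPKM in non-Dbx1 replicate 1, from 284 reads, and at 0, 0 and 0.291 among Dbx1 replicates, against 0.0236 and 0 among the remaining non-Dbx1 replicates. In that sample 6 of the 7 oligodendrocyte lineage markers were at their highest, Mog being the exception at 0.514 RPKM against 0.905 in Dbx1 replicate 1. Mbp, a myelin gene, measured 155 RPKM, against at most 9.10 elsewhere, and Sox10, a transcription factor of the oligodendrocyte lineage, measured 46.0 against at most 3.52. The L2FC of Plxnb3 was −0.99 (standard error 0.808, limma FDR = 0.949) and 0.11 without that sample. Plxnd1, a plexin of blood vessels, had reads only in non-Dbx1 replicate 2, at 0.825 RPKM, and Efna1 was highest there, at 2.08 RPKM. In the same sample 3 of the 5 endothelial markers were at their highest, among them Cldn5 and Kdr at 63.7 and 3.98 RPKM, against at most 1.64 and 0.0535 elsewhere. Pecam1 was highest in Dbx1 replicate 2 (0.507 RPKM, against 0.0343 in that sample) and Cdh5 in Dbx1 replicate 3 (0.927, against 0.646). Efnb1 and Sema3d were highest in non-Dbx1 replicate 3, the sample with Isl1, where 2 of the 4 motor neuron markers were at their highest. The part of other cells in these values was not tested.

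**Figure D5:**
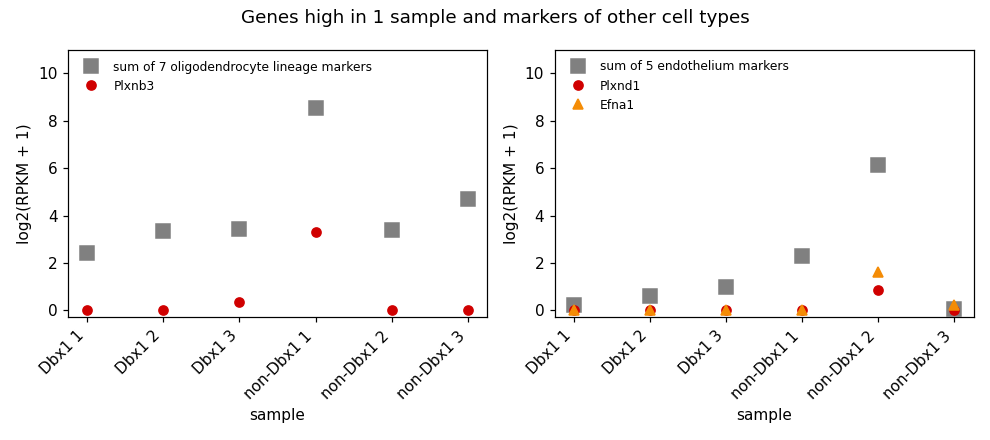
log2(RPKM + 1) in each sample (horizontal axis) of Plxnb3 with the sum of 7 oligodendrocyte lineage markers (left), and of Plxnd1 and Efna1 with the sum of 5 endothelial markers (right), markers as grey squares. Plxnb3 and its marker sum are highest in non-Dbx1 replicate 1, and Plxnd1, Efna1 and the endothelial sum in non-Dbx1 replicate 2.

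Of the 39 guidance genes with a mean RPKM of at least 1, 12 (30.8%) were highest in non-Dbx1 replicate 1, where 23.3% of the genes of like level were highest, and 1 was highest in Dbx1 replicate 1, against 13.2%. Without non-Dbx1 replicate 1, limma gave 1 guidance gene with p under 0.05 higher in the Dbx1 samples, Epha4 (L2FC 1.25, FDR = 0.888), and 0 in the other direction, where the shares of all genes were 2.41% and 2.93%.

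Other genes of these pathways, 49 co-receptors and intracellular partners, were all tested and none had an FDR under 0.1. The L2FC was above 0 for 18 (36.7%, against 50.8% of all genes) and below 0 for 31. Limma p was under 0.05 for 1 gene with the Dbx1 samples higher (2.04%, against 2.73% of all genes) and for 0 in the other direction, against 2.48%. That gene was Nrcam, a cell adhesion molecule that joins Nrp2 in semaphorin receptors, which measured 21.8, 22.2 and 24.5 RPKM among Dbx1 replicates, against 14.5, 16.2 and 10.6 among non-Dbx1 replicates (L2FC 0.71, limma FDR = 0.912). The highest means were those of Dpysl3 (159.5 RPKM) and Crmp1 (138), collapsin response mediators that carry the Sema3a signal to microtubules, and of the kinase Cdk5 (109), which phosphorylates them. Their L2FC values were 0.028, 0.17 and −0.22.

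Levels of different genes depend on the exon length by which reads were divided. The lengths that fit the deposited values were a median of 1.32 times the merged exon length of GENCODE vM21 over the guidance genes, and 1.41 times over 8793 genes with at least 20 reads in every sample, close to the sum of all distinct exons with shared bases counted again. Divided by merged length instead, the mean would be 12.8 RPKM for Ephb1, 14.3 for Sema4a, 11.8 for Sema6d, 9.56 for Sema6a, 11.2 for Plxna3 and 8.80 for Epha4. The highest members of the ephrins, EphA and EphB receptors, plexins, neuropilins and semaphorin classes 3 and 4 were the same by both lengths, but in classes 5 to 7 Sema6d took the place of Sema6b. Comparisons between groups divide each gene by a single length, so ratios of group mean RPKM do not depend on it. The L2FC on log2(RPKM + 1) does depend on it through the pseudocount, and was not refitted with merged lengths. Counting did not use strand, and exons of 14 guidance genes share bases with another annotated gene, among them Epha10, Plxna1 and Plxna4 on the opposite strand and Plxnc1 on the same strand, so reads of such pairs cannot be told apart where they overlap.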

How the data were processed

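Cytoplasm of 15 neurons per sample was amplified and sequenced, giving 3 Dbx1 and 3 non-Dbx1 samples, each from a different mouse. The authors aligned reads to mm10 with TopHat2, and HTSeq and SAMtools are also named in their processing notes. The deposited values are RPKM per gene name, computed by the authors from reads counted without regard to strand. No counts were used as deposited. Because RPKM moves in steps of 1 read, reads were recovered for 18193 genes as the smallest whole numbers that fit all samples within 0.02 of a read, so a printed read number can be a fraction of the true one. For 8873 genes above 0 in too few samples the fitting exon length nearest the annotated exon sum was used instead, and 1 gene was not recovered. Of the gene names, 95.3% matched GENCODE vM21, which gave positions on GRCm38, and 53 were guidance genes. The members and all gene lists were chosen with earlier results of these data known.

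Genes above 0 in at least 3 samples were tested in R 4.3.3 with limma 3.58.1 (empirical Bayes with a mean-variance trend) on log2(RPKM + 1), and p-values were adjusted over all of them by Benjamini and Hochberg to an FDR with a threshold of 0.1. Such a pseudocount makes fold changes of low genes too small. The authors' own test used counts in DESeq2, which was not run here. Reads recovered from RPKM were tested with limma voom as an alternative. Exact two-sided permutation tests went through every split of the 6 samples into 3 and 3 with numpy 2.4.6, and figures used matplotlib 3.10.9, in Python 3.11.15. The script was tested on simulated data. Members given with all 6 values were the 2 with the highest mean RPKM in each class, those whose groups did not overlap at a mean of at least 1 RPKM, the 3 with the largest L2FC in each direction and any with limma p under 0.05. Partner genes named were those with p under 0.05 and the 3 with the highest mean. Sema4g and members given by single values were picked after their values were seen. Depth of 6464675 to 9432958 reads on genes per sample put 3 reads on 1000 bases of exon at 0.318 to 0.464 RPKM. Alternatives were another pseudocount, other filters, 2 scalings, no trend, a replicate block, voom on recovered reads, each sample left out, and merged exon lengths.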

Additional observations from a re-analysis of the deposited data

How the results depend on the processing

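No guidance gene had an FDR under 0.1 in limma under any alternative, the lowest being 0.742. The number with p under 0.05 and higher in the Dbx1 samples was 0, but 1 (Epha4) without a mean-variance trend and 1 (Epha4) in voom on recovered reads, and 0 to 1 when a sample was left out. The number higher in the non-Dbx1 samples was 1 (Plxnc1), and 0 to 1 when a sample was left out. With quantile normalization, 2 genes (Epha4 and Plxna1) rather than 1 had non-overlapping groups with the Dbx1 samples higher. Reads in all 6 samples were found for 36 genes, and 22 had an RPKM of at least 1 in each. The cause of these changes was not tested.

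The replicate numbers did not pair the samples: deviations of same-numbered samples from their group means correlated at −0.11, 0.025 and −0.052. With the replicate number as a block, 0 guidance genes had an FDR under 0.1, and 0 and 1 had p under 0.05 in the Dbx1 and non-Dbx1 directions.

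Of the 23 named genes, 11 kept the sign of their L2FC under all alternatives, and 17 of 343 alternative values had the other sign. For Efnb2 the log2 ratio of group means was −0.12. When a sample was left out, the L2FC ran from −0.11 to 0.18 for Efna3, −0.27 to 1.03 for Efnb2, −0.95 to 0.052 for Efnb3, −1.23 to 0.15 for Epha10, −0.076 to 1.30 for Epha5, −0.11 to 0.55 for Ephb1, −1.03 to 0.26 for Ephb6, −0.44 to 0.17 for Nrp2, −0.38 to 0.32 for Plxna4, −1.55 to 0.11 for Plxnb3, −0.12 to 0.27 for Sema4a and −1.25 to 0.25 for Sema5a. Among genes that kept their sign it ran from −0.40 to −0.12 for Efna2, −1.25 to −0.20 for Efna5, 0.78 to 1.25 for Epha4, 0.45 to 0.96 for Epha6, 0.13 to 0.79 for Nrp1, 0.33 to 0.79 for Plxna1, −1.92 to −1.16 for Plxnc1, −0.87 to −0.016 for Sema3a, 0.18 to 1.28 for Sema3c, −1.31 to −0.50 for Sema4f and −1.25 to −0.42 for Sema6b. Among the 23 named genes, merged exon lengths, chosen after seeing the data, moved the mean RPKM of Efna3, Epha4, Ephb1, Plxna1 and Sema4a by more than the SD over samples. Members outside the named genes moved by more than this as well. Among them were Sema6a, from 3.56 to 9.56 RPKM (SD 1.66), and Sema6c, from 2.16 to 6.21 (SD 0.891). With 3 samples a group, the exact test cannot give a p under 0.10.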
